A study of Mus musculus with 2 samples.

Results

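The clustered histone genes are the genes whose symbol starts with Hist1h, Hist2h, Hist3h or Hist4h and which have at least 1 protein-coding transcript in the annotation. By that rule 67 of the 55536 genes in the tables were members, and no expression value was used to choose them. They encode the linker histone H1 (6 genes) and the core histones H2A (18), H2B (18), H3 (12) and H4 (13). Total RNA was measured in the heart of female B6CASTF1/J mice, hybrids of the C57BL/6 and CAST strains, at 18 to 20 months of age. There was 1 group without treatment, with 2 ribosome-depleted libraries, each made from 300 ng of RNA. The labels name separate biosamples but the same donor entry for both, so the spread between the libraries may be technical. With a single group there was no contrast between conditions, and every comparison between the libraries has 1 library a side.

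Core histones form the octamer around which DNA is wrapped, and H1 binds the DNA that enters and leaves it. The clustered genes are known as replication-dependent: most are transcribed in S phase, and their mRNAs end in a stem-loop bound by the protein Slbp in place of a poly(A) tail. Replacement variants such as H3.3 and H2A.Z are encoded elsewhere by genes with polyadenylated mRNAs and are made outside S phase. Adult cardiomyocytes rarely divide, and total RNA, unlike poly(A)-selected RNA, keeps transcripts without a tail.

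The stem-loop was searched in the annotated transcripts as 16 bases that open with GG, in which the first 6 bases are the reverse complement of the last 6 and the 4 bases between them have the form TNTN. It was found in 46 of the 67 genes. The same search found it in 216 of 58725 other protein-coding transcripts (0.368%), and in 3 of those (0.00511%) it lay in the last 100 bases. The following stretches of transcript, with 5 bases to either side of the stem-loop, come from the GENCODE M21 transcripts. Capitals mark the stem-loop. They show all 8 forms found, with the stem of the H4 genes beside that of the other classes.
Hist1h4h: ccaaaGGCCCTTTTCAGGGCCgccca
Hist1h4d: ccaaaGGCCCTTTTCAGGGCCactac
Hist2h2aa2: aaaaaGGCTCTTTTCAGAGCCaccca
Hist1h1c: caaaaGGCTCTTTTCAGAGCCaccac
Hist1h2bk: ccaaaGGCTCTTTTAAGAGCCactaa
Hist2h2ac: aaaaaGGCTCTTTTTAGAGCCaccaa
Hist1h4b: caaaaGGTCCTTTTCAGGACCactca
Hist1h4a: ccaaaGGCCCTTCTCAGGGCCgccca
Hist2h4: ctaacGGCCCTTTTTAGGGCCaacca
Hist1h3g: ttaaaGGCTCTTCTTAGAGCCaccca

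The form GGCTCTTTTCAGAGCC was held by 26 genes: 3 of H1, 10 of H2A, 8 of H2B and 5 of H3, and no H4 gene. All 7 genes with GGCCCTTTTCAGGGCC were H4 genes. A further 6 genes of H1, H2B and H3 held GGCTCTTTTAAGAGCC, and each of the other 5 forms stood in 1 or 2 genes. Hist2h2aa2 and Hist2h2aa1, a pair with identical coding sequence, also had the same 26 bases around the stem-loop.

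The upstream regions also differed by class. Promoters (250 bases before to 50 after the start, RefSeq, GRCm38.p6) were matched for 61 members, and 4 short motifs known from histone promoters were searched on both strands. CCAAT stood in 52 of the 61 (85.2%), against 37.4% of 32851 promoters. It was present in all 5 H1, 18 H2A, 16 H2B and 10 H3 promoters and in 3 of 12 H4 promoters. GGTCCG, the core of the H4 subtype element, stood in 11 of 12 H4 promoters, in 1 H2B and 1 H3 promoter, and in 8.25% of all promoters. ATTTGCAT, the octamer motif of H2B promoters, stood in 6 of 16 H2B and 7 of 18 H2A promoters and in 1.74% of all. Many H2A and H2B genes lie head to head, with 175 to 305 bases between their starts, so their promoter windows overlap. A motif copy there can count in both classes. TATAAA stood in 34 members (55.7%), against 13.6% of all promoters. A match describes the sequence and is not evidence that a factor was bound.

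Around GGTCCG, the promoters of the 4 H4 genes with the highest levels among those that hold it read as follows, each on its gene's strand. The stretches are shown because these genes share the element while their levels differed several-fold. GGTCCG begins 5 bases before the start in Hist1h4h, 47 in Hist1h4m and Hist1h4d and 46 in Hist1h4c. Capitals mark GGTCCG and TATAAA.
Hist1h4h, chr13:23531019-23531072, + strand: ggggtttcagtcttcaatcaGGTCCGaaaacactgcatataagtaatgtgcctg
Hist1h4m, chr13:21811679-21811732, + strand: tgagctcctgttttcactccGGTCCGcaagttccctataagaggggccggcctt
Hist1h4d, chr13:23581501-23581554, + strand: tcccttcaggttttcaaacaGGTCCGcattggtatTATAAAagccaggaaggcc
Hist1h4c, chr13:23698471-23698524, − strand: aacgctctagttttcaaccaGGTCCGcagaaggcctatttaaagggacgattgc

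As a whole, the clustered histone genes were a small and uneven part of the heart's RNA. Levels are in TPM, relative transcript abundances, which are scaled by transcript length, and come from the gene table with the column layout of RSEM unless another is named. The members summed to 469 TPM in replicate 1 and 550 TPM in replicate 2, a mean of 509 ± 57.3 TPM (SD, n = 2). That was 0.0509% of all TPM and 0.125% of the TPM of nuclear protein-coding genes. In expected counts they held 10117 and 11060 of totals of 35897521 and 36926429. Of the 67 members, 40 (59.7%) reached 1 TPM in both libraries, beside 11004 of 22028 protein-coding genes (49.95%). The median member stood at 1.55 and 3.24 TPM, and the median protein-coding gene at 1.20 TPM over both libraries.

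A few genes carried most of the signal: the 4 highest held 53.0% of the summed TPM and the 10 highest 70.8%. At the other end, 14 members lay below 1 TPM in both libraries. Hist1h2aa and Hist1h2ba, a neighbouring pair known as testis-specific H2A and H2B, had no counts in either library, and the testis-specific linker histone Hist1h1t had 0 and 1 count. Where no read was counted, up to 3 counts (0.0836 CPM in replicate 1 and 0.0812 CPM in replicate 2) cannot be told from 0, a floor for counting error only. Hist2h3c1 was also listed at 0 in both, but all of its sequence in 31-base words recurs in other genes.

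**Figure D1:**
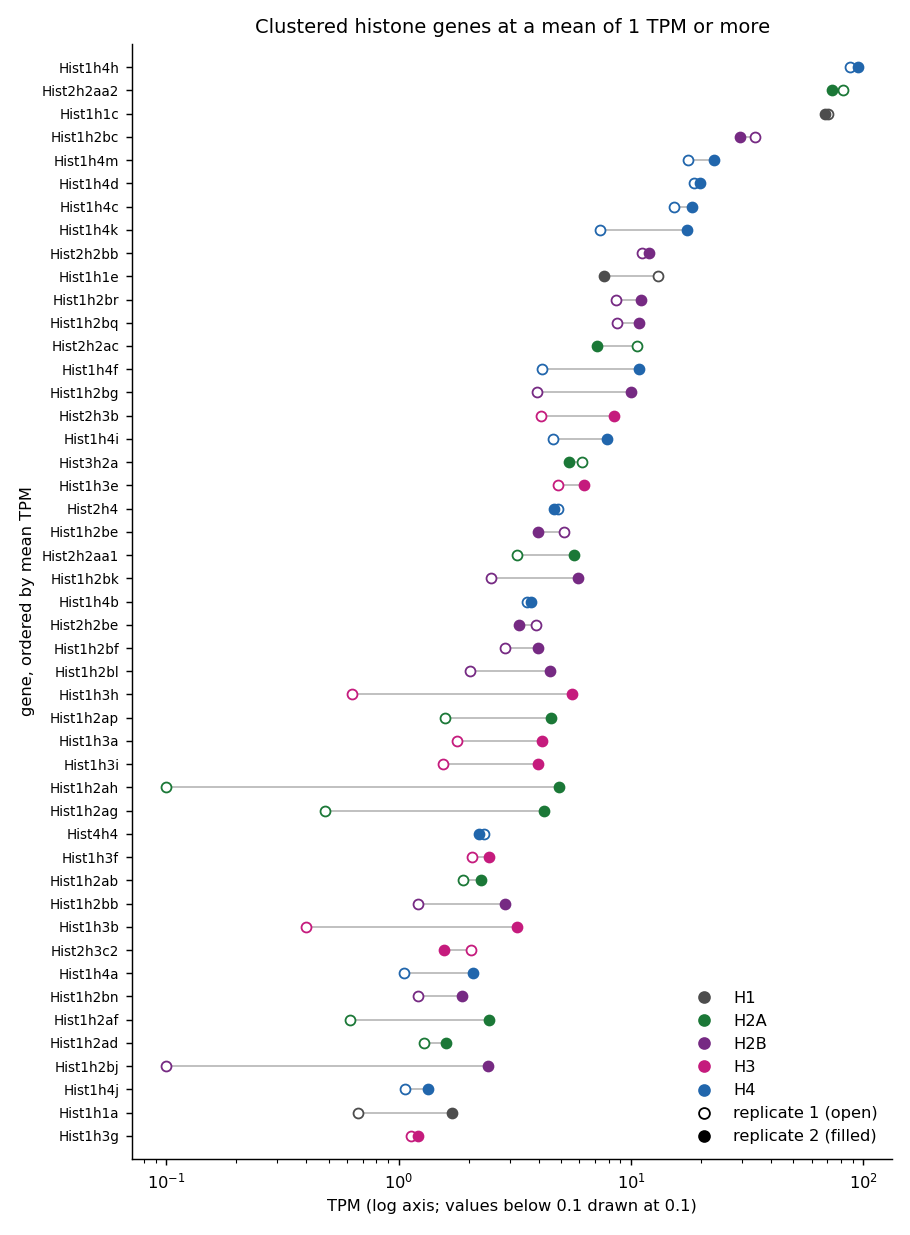
TPM (log axis) of each clustered histone gene with a mean of 1 TPM or more, ordered by mean; open circles are replicate 1, filled circles replicate 2, and colours give the class. Hist1h4h heads the order at 87.4 and 94.7 TPM, most genes lie below 10 TPM, and the pairs of circles lie furthest apart among the low genes.

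The highest member was Hist1h4h, an H4 gene of 470 bases in a single exon on chromosome 13 (mm10, 23531050 to 23531519, + strand), at 87.4 and 94.7 TPM (91.1 ± 5.17). Its expected counts were 906 and 1034, and 50% of its 31-base words recur in another gene. The next H4 genes were Hist1h4m at 17.6 and 22.8 TPM, Hist1h4d at 18.7 and 19.9 and Hist1h4c at 15.4 and 18.2. Hist1h4h thus lay several-fold above them in both libraries, while the ranges of Hist1h4m and Hist1h4d overlapped. Of the 31-base words of Hist1h4m, 91.7% recur in Hist1h4n, which has the identical coding sequence, so its level rests on the authors' estimate. Hist1h4k followed at 7.32 and 17.5 TPM, Hist1h4f at 4.15 and 10.8, Hist1h4i at 4.61 and 7.85, Hist2h4 at 4.84 and 4.68 and Hist1h4b at 3.58 and 3.72. Of the 13 H4 genes, 12 reached 1 TPM in both libraries. H4 had the highest class sum, 168 and 208 TPM (188 ± 28.1), and has no replacement variant in the list used here.

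Among H2A genes, Hist2h2aa2 and Hist2h2aa1 on chromosome 3 held most of the signal. They encode the same protein from identical coding sequences. Hist2h2aa2 was listed at 81.6 and 73.6 TPM and Hist2h2aa1 at 3.22 and 5.71, so the pair summed to 84.8 and 79.3 TPM. All 31-base words of Hist2h2aa2 recur in another gene, and 89.7% of those of Hist2h2aa1 do, so the division between them rests on the authors' estimate. Below the pair came Hist2h2ac at 10.7 and 7.15 TPM, Hist3h2a at 6.15 and 5.39 and Hist1h2ap at 1.58 and 4.51. The class summed to 114 ± 5.07 TPM, and 7 of its 18 genes reached 1 TPM in both libraries.

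Hist1h2bc was the highest H2B gene, at 34.2 and 29.6 TPM (31.9 ± 3.28). It is annotated with 2 exons and no stem-loop, over chr13:23684199-23692908 on the + strand. Hist2h2bb followed at 11.1 and 11.95 TPM, and 59.3% of its 31-base words recur elsewhere, 56.1% in the noncoding gene Gm42743. Hist1h2br at 8.59 and 11.01 TPM and Hist1h2bq at 8.66 and 10.9 TPM form another pair with identical coding sequence. Hist1h2bg was listed at 3.94 and 9.95 TPM, Hist1h2be at 5.16 and 3.97, Hist1h2bk at 2.49 and 5.90, Hist2h2be at 3.91 and 3.28, Hist1h2bf at 2.87 and 3.96 and Hist1h2bl at 2.03 and 4.46. In contrast to H2A, 12 of the 18 H2B genes reached 1 TPM in both libraries, and the class summed to 96.4 ± 14.0 TPM.

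Hist1h1c, which encodes H1.2, accounted for most of the linker histone signal. It stood at 70.3 and 68.2 TPM (69.2 ± 1.48) on 2867 and 2931 expected counts, the most of any member, and 11.4% of its 31-base words recur in other genes. Hist1h1e (H1.4) stood at 13.0 and 7.66 TPM. The other 4, Hist1h1a, Hist1h1b, Hist1h1d and Hist1h1t, were each below 2 TPM in both libraries. The class summed to 81.9 ± 3.65 TPM.

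H3 was the lowest class at 19.2 and 38.8 TPM (29.0 ± 13.9), and no H3 gene reached 10 TPM. Hist2h3b was highest at 4.08 and 8.43 TPM, then Hist1h3e at 4.85 and 6.29, Hist1h3h at 0.63 and 5.55, Hist1h3a at 1.78 and 4.15 and Hist1h3i at 1.55 and 3.96. Of these, Hist1h3e differed least between the libraries, and all 5 were higher in replicate 2. In both libraries the order of the class sums was H4, H2A, H2B, H1, H3, with H2B at 86.5 and H1 at 84.5 TPM in replicate 1. In the second deposited table, described further on, replicate 2 gave the same order, but in replicate 1 H2A at 152 TPM and H4 at 151 were level, and H1 at 83.3 lay above H2B at 70.2.

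By position, the Hist1 cluster on chromosome 13 (54 members over 2219 kb) summed to 381 ± 61.3 TPM. The Hist2 cluster on chromosome 3 (10 members over 50.3 kb) summed to 120 ± 3.53 TPM. The 2 Hist3 genes on chromosome 11 summed to 6.5 and 5.95 TPM, and Hist4h4, alone on chromosome 6, stood at 2.32 and 2.21 TPM.

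Replacement variants held different shares of their classes. H3f3a, which encodes H3.3, stood at 153 and 158 TPM, and H3f3b, which encodes the same protein, at 43.8 and 38.1. With the centromeric variant Cenpa at 23.6 and 22.8 TPM, the H3 replacement genes summed to 219 ± 1.27 TPM. Clustered genes thus held 11.5% ± 4.996 of the H3 class (8.01% and 15.1%). In H2A they held 54.9% ± 0.562, beside H2afv at 30.7 and 33.8 TPM, H2afz at 24.3 and 24.0, H2afy at 16.5 and 22.7 and H2afj at 11.3 and 11.7. In H1 they held 74.3% ± 0.128, beside H1f0 at 28.8 and 27.2 TPM. The share in H3 was below those in H2A and H1 in each library, by more than the difference between libraries.

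**Figure D2:**
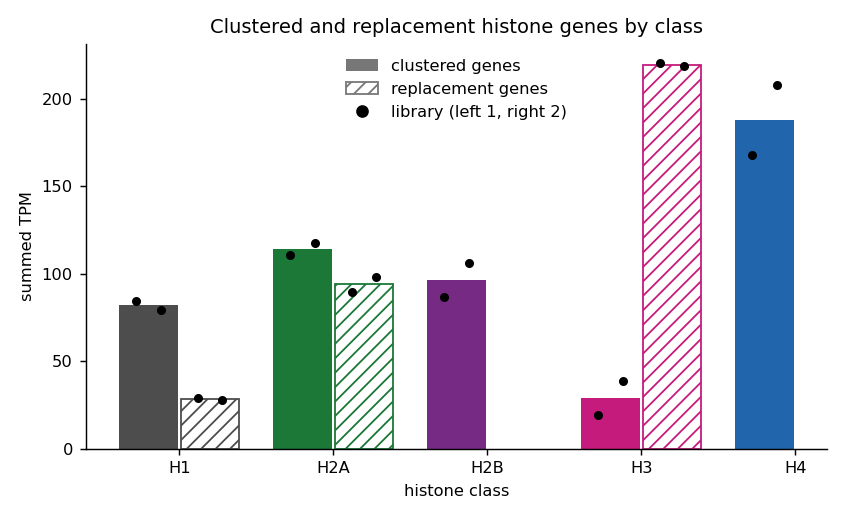
Summed TPM of clustered genes (solid bars) and of replacement genes (hatched bars) by histone class; bars are means of the 2 libraries and points the libraries, replicate 1 on the left. Replacement genes exceed clustered genes in H3 (219 against 29.0 TPM) and lie below them in H2A and H1; no replacement gene of H2B or H4 was listed.

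The annotated 3′ ends divided the members into groups. In 23 genes the main transcript ended within 100 bases after the stem-loop and these summed to 224 and 261 TPM. Another 23 had a main transcript that ran further past the stem-loop, summing to 158 and 166 TPM. In 17 genes the model stopped within 10 bases of the stop codon, so that it held no stem-loop, and in 2 (Hist1h1a and Hist2h3b) it ended inside the stem-loop. The last 2, Hist1h2bc and Hist2h2be, had another end without a stem-loop. Counted by transcript, those ending at the stem-loop held 47.6% ± 0.135 of the members' TPM and those running past it 31.5% ± 2.41. The annotation fixes these ends: the files hold no read coverage, so the 3′ ends of the RNA in these hearts were not measured.

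Transcripts ending at the stem-loop were 391 to 630 bases long, and those running past it 539 to 7425. Of the 23 genes running past it, 12 had AATAAA or ATTAAA, the poly(A) signals, in the last 50 bases, among them Hist1h1c, Hist2h4, Hist3h2a and Hist4h4. Together these 12 held 96.8 TPM. Of the 23 genes ending at the stem-loop, Hist1h4h alone had such a signal there, 46 bases being annotated after its stem-loop. None of the 17 coding-only models had one, but their last 50 bases are almost all coding sequence by definition. The share of other transcripts with such a signal was not counted. Hist1h1c has 840 annotated bases after its stem-loop, Hist1h4d 770 and Hist1h4c 454.

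Many H2A and H2B genes lie head to head and share an upstream region. There were 12 such pairs with 175 to 305 bases between their starts. In 9 of the 12 the H2B gene was above its H2A partner in both libraries, in 2 the H2A gene was, and 1 pair was at 0. Hist1h2bc stood at 34.2 and 29.6 TPM and its partner Hist1h2ac, 250 bases away, at 0.71 and 0.52. In the kallisto-layout table described below, the H2B gene was higher in 8 pairs by mean TPM and the H2A gene in 4. TPM of a coding-only model rests on reads within the coding sequence alone.

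The Hist2h2ac and Hist2h2be pair was one of the 2 in the other direction: Hist2h2ac stood at 10.7 and 7.15 TPM and Hist2h2be at 3.91 and 3.28. The 238 bases between the starts of this pair are shown because 1 stretch lies upstream of both genes. They run from chr3:96220881-96221118, on the − strand, so that Hist2h2ac starts just after the last base. Capitals mark ATTTGCAT, CCAAT and TATAAA on either strand. The only TATAAA reads on the strand of Hist2h2ac and lies near its start.
Hist2h2ac upstream: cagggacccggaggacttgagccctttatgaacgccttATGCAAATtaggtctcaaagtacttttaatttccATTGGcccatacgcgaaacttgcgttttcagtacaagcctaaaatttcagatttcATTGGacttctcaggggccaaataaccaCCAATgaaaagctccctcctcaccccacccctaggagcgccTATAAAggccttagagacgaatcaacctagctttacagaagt

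Between the libraries, most of the abundant members lay close together and many low members were higher in replicate 2. Counts were compared as replicate 2 over replicate 1 after TMM scaling, for genes with 10 or more expected counts in both. Of 44 members that passed, 11 were 2-fold or more higher in replicate 2 (25%), while 3.44% of all 14992 genes that passed were. None was 2-fold or more lower, against 1.05% of all genes. The median log2 ratio was 0.24 over the 44 members and 0.0020 over all genes. These ratios have no replicate check, so no p-value is given, and their intervals cover counting error only.

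The same count was made among low genes. Of 27 members with a mean count under 100, 10 were 2-fold or more higher in replicate 2 (37.0%), while 8.23% of all 4081 such genes were. Of the 17 members with a mean count of 100 or more, 1 was, and the share of all such genes was not counted. The filter kept out 23 members, 20 of them higher in replicate 2 and 3 at 0 in both, so the 44 are not all members. How many of all genes kept out were higher in replicate 2 was not counted, so the 20 cannot be read as a trait of the members. Among the members kept out, Hist1h3h had 5.47 and 50.95 expected counts, Hist1h1b 3 and 26, and Hist1h2ah 0 and 44.0. For Hist1h2ah, which shares 91.2% of its 31-base words, the authors' posterior means were 0.49 and 3.78 TPM.

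The 11 genes came from every class. In H4, Hist1h4k was 2.34-fold higher (95% interval 1.63 to 3.38) and Hist1h4f 2.56-fold (1.70 to 3.89). In H2B, Hist1h2bg was 2.48-fold higher (1.82 to 3.43), Hist1h2bk 2.33-fold (1.46 to 3.82), and Hist1h2bl and Hist1h2bb 2.16-fold and 2.35-fold. The last pair rests on few counts, 15.98 and 37.01 for Hist1h2bl and 13.8 and 34.7 for Hist1h2bb. The 3 H3 genes were Hist2h3b, Hist1h3a and Hist1h3i, at 2.03-fold to 2.51-fold. Hist1h2ap was the H2A gene, 2.81-fold higher (1.59 to 5.16), and Hist1h1a the H1 gene, at 12 and 32 counts. Most of these genes share sequence: of 19 tested members with under 50% of their 31-base words in other genes, 2 were 2-fold or more higher, Hist1h1a with 0.281% and Hist1h2bb with 47.7%. That split was chosen after the values were seen.

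Of the 10 members with the highest TPM, Hist1h4k was the 1 that was 2-fold higher. Hist1h4h had a ratio of 1.06 (0.971 to 1.16), Hist1h1c 0.952 (0.904 to 1.00) and Hist1h4d 1.04. Hist1h1e was lower in replicate 2, at 0.577 (0.510 to 0.654), as were Hist2h2ac at 0.659 (0.499 to 0.877) and Hist1h2be at 0.756 (0.639 to 0.893). Hist1h1e and Hist1h2be overlap on chromosome 13 (23620629 to 23622558 and 23583670 to 23621124, both on the − strand) and share words. In all, 15 of the 44 intervals lay above 1, 6 below 1 and 23 spanned 1. The same count was not made over all genes. Since the intervals cover counting error only, it cannot be read as a trait of the members.

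By annotated end, 5 of 15 tested genes ending at the stem-loop were 2-fold or more higher in replicate 2, both of those ending inside it, 3 of 6 coding-only genes and 1 of 19 running past it. The share over all tested genes was 3.44%, and 8.23% among those with a mean count under 100. No share was counted over genes with the mean counts of each group. Summed counts had a ratio of 1.14 (1.08 to 1.20) for genes ending at the stem-loop, 1.82 (1.59 to 2.08) for coding-only genes and 0.953 (0.919 to 0.987) for genes running past it. The groups also differ in mean count and in shared sequence, so these cannot be told apart here.

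**Figure D3:**
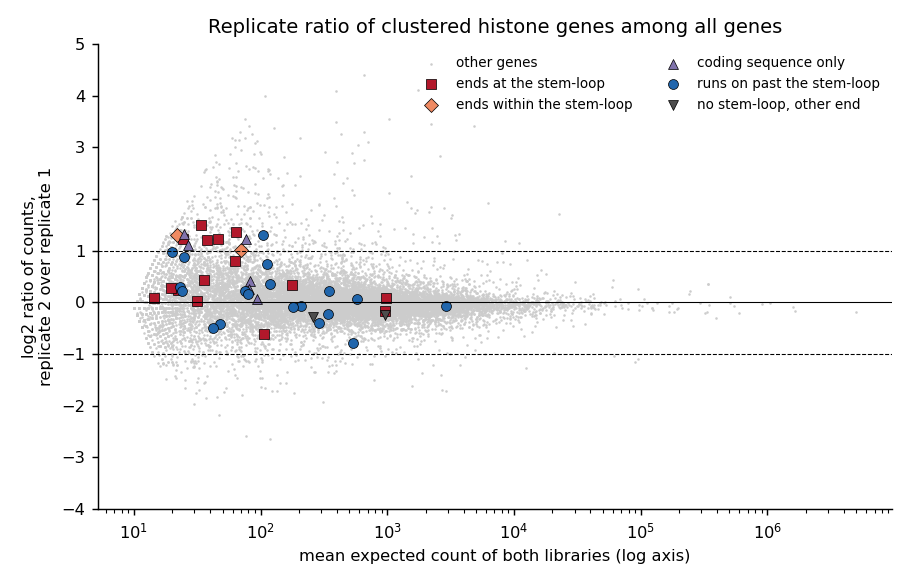
Log2 ratio of scaled counts, replicate 2 over replicate 1, against the mean expected count (log axis), for genes with 10 or more counts in both; grey points are other genes, coloured symbols the 44 tested histone genes by annotated end, and dashed lines 2-fold. The 11 histone genes above the upper dashed line lie mostly under a mean of 100 counts, and none lies below the lower one.

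Genes of DNA replication and cell division were mostly low in both libraries: 13 of 35 reached 1 TPM in both, and the list summed to 44.6 and 54.7 TPM. Of 26 tested, 24 had more scaled counts in replicate 2, and the median log2 ratio was 0.36, beside 0.0020 over all genes. How many of all genes had more counts in replicate 2 was not counted. By the 2-fold measure, 2 of the 26 were higher and 1 lower, beside 3.44% and 1.05% of all genes. Among all genes with a mean count under 100, 8.23% were 2-fold or more higher. The proliferation marker Mki67 stood at 0.19 and 0.53 TPM, 2.61-fold higher in counts (1.84 to 3.75), and Top2a, the topoisomerase of dividing cells, at 0.16 and 0.59 TPM, 4.12-fold higher (2.28 to 7.98). E2f2 was 2-fold or more lower, and Pcna, the sliding clamp, stood at 15.01 and 15.8 TPM. The next highest were Mcm7 at 3.38 and 4.51, Rrm1 at 3.75 and 3.94 and Mcm4 at 2.75 and 2.85. Marker lists of other cells, chosen with earlier results of these data known, differed in how far they moved. The 8 B and T lymphocyte markers summed to 3.69 and 20.5 TPM, the 4 adipocyte markers to 35.3 and 257, the 5 airway secretory markers to 0.45 and 284, and the 5 erythroid markers to 23409 and 11150. Endothelial markers had a median log2 ratio of -0.13 and fibroblast and macrophage markers 0.25 each. Of these 18 genes the macrophage gene Cd163 alone was 2-fold apart, at 2.21-fold higher in replicate 2. That 1 in 18 is near the shares over all genes (3.44% higher and 1.05% lower). The 8 cardiomyocyte markers were detected in both, at medians of 4716 and 4437 TPM. The part of these other cells in the histone ratios was not tested, and in such bulk RNA fewer cells of a type and less RNA per cell cannot be told apart.

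Genes that make and process histone mRNA were mostly detected, 18 of 19 at 1 TPM or more in both libraries. None of the 18 tested was 2-fold apart, which is near the shares over all genes (3.44% higher and 1.05% lower). Slbp, the stem-loop binding protein, stood at 6.10 and 5.25 TPM, Npat, the coactivator of histone gene transcription, at 2.66 and 2.05, and Lsm10 and Lsm11, of the U7 particle that guides the cut, at 7.05 and 5.94 and at 1.59 and 1.31. The highest were Sympk, the scaffold of the cleavage complex, at 38.7 and 36.5 TPM, Srrt at 25.7 and 21.6, Mif4gd at 21.5 and 21.1 and Upf1, a helicase of RNA decay, at 18.4 and 18.2. Zfp473, a zinc finger protein of the U7 complex, stood at 0.01 and 0.02. Of 15 histone chaperones, 12 reached 1 TPM in both, with Nap1l4 at 73.0 and 72.1 TPM, Rbbp4 at 30.1 and 30.3, Nap1l1 at 27.5 and 28.1 and Atrx at 23.4 and 23.9. None of the 15 chaperones or of the 11 replacement variants was 2-fold apart, again near the shares over all genes.

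The authors also deposited a transcript table with the column layout of kallisto, and some histone genes differed several-fold between the tables. More than 4-fold apart in mean TPM were 8 of the 44 tested members (18.2%), against 2.71% of 14987 genes. Hist2h2aa2 was listed at 0 in both libraries there, and Hist2h2aa1 at 116 and 112 TPM, the reverse of the division above. The pair Hist1h2bq and Hist1h2br was lower there, Hist1h2bq at 0.112 and 4.13 TPM and Hist1h2br at 0.038 and 4.32. Hist1h2bl was lower too, and Hist1h2ad and Hist1h4a were higher.

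Shared words did not mark every such gene. Hist1h4d, with 14.7% of its 31-base words in other genes, had 542 and 608 expected counts in the RSEM-layout table but 57.0 and 74.0 in the other, or 2.32 and 2.97 TPM. Hist1h4c, with 22.2%, had 309 and 387 against 76.0 and 114, and Hist2h4, with 2.31%, had 207 and 211 against 66.0 and 60.0. All 3 are H4 genes that run past the stem-loop. Of them, Hist1h4d alone was more than 4-fold apart in mean TPM. The 7 H4 genes with that end held 1351 and 1584 counts in the RSEM-layout table and 325 and 501 in the kallisto-layout table, while the 4 such H1 genes held 3605 and 3431 against 3394 and 3263. Lower counts were not particular to that end. The 5 H4 genes ending at the stem-loop held 1118 and 1381 against 593 and 728, and the 6 coding-only H2B genes 252 and 340 against 23.8 and 59.1. The sum of the 4 H2B genes running past the stem-loop went the other way, at 402 and 446 against 689 and 678. Hist1h2be made this difference, at 318 and 258 against 631 and 590. Hist1h2bg, at 57.1 and 152 against 12.5 and 54.5, and Hist3h2ba had lower counts in the kallisto-layout table in both libraries. Hist1h2bh had higher counts there in replicate 1 only. Hist1h4h had 906 and 1034 expected counts against 540 and 653 in the kallisto-layout table. In TPM, Hist1h4h stood there at 114 and 137 and Hist1h1c at 68.3 and 69.5, so both stayed among the highest members.

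The tables also differ in effective length, the length by which counts are divided. For the 470 bases of Hist1h4h it was 371 in the RSEM-layout table and 156 in the kallisto-layout table in replicate 1, and for the 312 bases of Hist1h4k 213 and 68.5. Of all 67 members, 41 had 50% or more of their 31-base words in other genes, and 5 pairs had identical coding sequences.

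**Figure D4:**
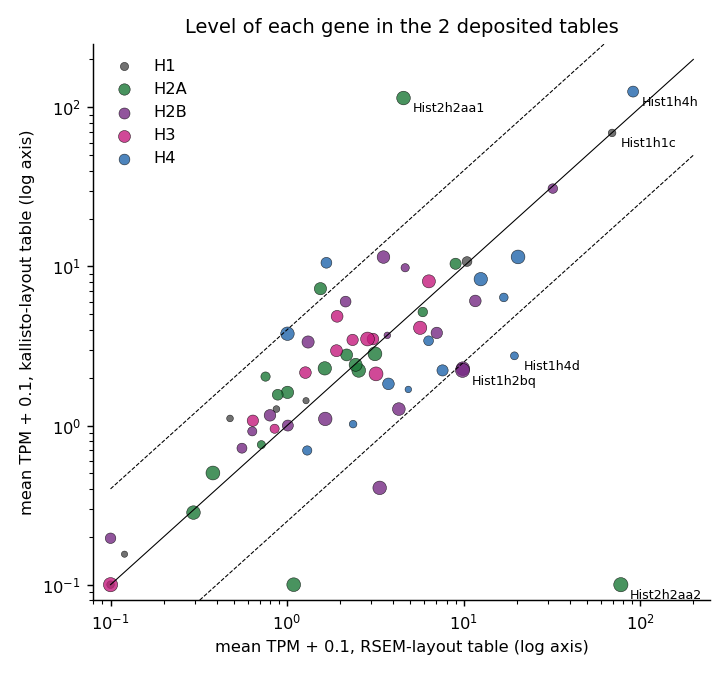
Mean TPM + 0.1 of each clustered histone gene in the RSEM-layout (x axis) and kallisto-layout table (y axis), both on log axes; colours give the class, larger points share more sequence, the solid line is equality and dashed lines are 4-fold. Hist2h2aa1 and Hist2h2aa2 lie on opposite sides of equality, and Hist1h4d lies below the lower dashed line.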

How the data were processed

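Total RNA of 2 heart libraries (replicates 1 and 2 of 1 group) was measured. Per the deposited readme, the tables refer to mm10 and GENCODE M21. The authors computed the expected counts of the RSEM-layout tables from transcriptome alignments. The authors' estimated counts in the kallisto layout came from the read file. Both methods divide a read that matches several genes. The authors scaled TPM over all rows of a table. The isoform percent was deposited by the authors as a transcript's share of its gene. For the aligner and the programs, names and versions are not given in the sources. Total expected counts were 35897521 and 36926429.

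All 55536 genes matched the annotation. Kallisto-layout transcripts were summed per gene. Expected counts were rounded to whole numbers for intervals (95%, exact binomial) and scaled by TMM (edgeR 4.0.16, R 4.3.3), with DESeq2 1.42.0 size factors as an alternative. The ratio needed 10 or more counts in each library, while TPM had no filter. The ratio script was tested on simulated data. Sequences were searched with Python 3.11.15 in the GENCODE M21 transcripts and RefSeq promoters.

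The members and gene lists were chosen with earlier results of these data known. Named were up to 30 members by mean TPM from 1 TPM upward, up to 10 of those 2-fold apart between libraries or over 4-fold apart between tables, and the 4 highest genes of other lists. Other members named at low levels or for contrast were chosen after their values were seen. Other alternatives were levels rescaled over nuclear protein-coding genes, posterior mean TPM, other thresholds, pseudocounts and word lengths, and each replicate left out.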

Additional observations from a re-analysis of the deposited data

How the results depend on the processing

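Of 61 values recomputed from both libraries, 36 stayed within the spread of the main ones or, for counts, within 1.5 times, and 25 moved. With 2 libraries, a level from 1 of them always lies within 1 SD of the mean, so leaving out a replicate is no check of a level. From single libraries, the median member ranged from 1.55 to 3.24 TPM, H3 from 19.2 to 38.8 TPM and the clustered share of H3 from 8.01% to 15.1%. No paired analysis was possible because there is 1 group. Rescaling over nuclear protein-coding genes, which raises every level by construction, gave 1254 TPM in all, a median of 5.92, 201 for H1, 281 for H2A, 237 for H2B, 71.7 for H3 and 463 for H4, and 939, 294, 15.3 and 5.57 for Hist1 to Hist4. The median member with 10 or more counts in both libraries stood at 4.17 TPM. The kallisto-layout table gave 155 TPM for H2A, 148 for Hist2, 5.69 for Hist3 and 0.921 for Hist4, clustered shares of 72.9% in H1 and 59.5% in H2A, and 59.5% of TPM in transcripts ending at the stem-loop. Posterior means gave a share of 54.3% in H2A, and a stem-loop anywhere in the transcript 79.2% of TPM. The 11 members 2-fold apart became 27 of 64 without a filter (prior of 0.5 counts) and 7 of 35 tested in the kallisto-layout table. They became 4 of 44 on log2(TPM + 1) and 2 of 19 among members sharing under 50% of words. The last setting was added after seeing the data and had fewer genes tested. The share of all genes was not counted under these settings, so these counts cannot be read as a trait of the members. Of the 7 in the kallisto-layout table, 6 were higher and 1, Hist2h2ac (84.4 and 40.2 estimated counts), lower in replicate 2. The cause of the other moves was not tested. Depth limits the low members: a count of 0 allows 3 counts.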

Other observations

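Of the 70 genes whose names match, 3 are pseudogenes and were not members. Hist1h2al, a processed pseudogene named after H2A, was listed at 19.4 and 20.1 TPM, on 130 and 142 expected counts. Hist3h2bb-ps stood at 0.39 and 0.61 TPM, and Hist1h2aj at 0 in both libraries.

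Hist1h2be had a second kind of transcript in quantity: a processed transcript without a coding sequence held 48.8% and 47.8% of its TPM, and the main coding transcript 51.2% and 52.2%. Chaf1a, a subunit of the chaperone that deposits new H3 and H4 at replication forks, stood at 0.23 and 0.44 TPM, and Asf1b at 0.88 and 0.78.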
